A study of Mus musculus with 24 samples.

Results

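The 10 genes described here mark the surfactant system of type II alveolar cells: Sftpa1, Sftpb, Sftpc, Sftpd, Abca3, Lamp3, Lpcat1, Slc34a2, Nkx2-1 and Napsa. They were found by symbol among the 78298 genes of the deposited expression table, each with 1 row, and all 10 passed the filter on low values. Lung RNA was measured in 24 wild type C57BL/6 mice, 7 weeks old. Control mice (n = 4) received saline into the trachea per the protocol, although their sample characteristics list the lipopolysaccharide (LPS) challenge. LPS mice (n = 5) received 5 mg/kg LPS, a bacterial cell wall component that sets off acute lung inflammation. The other 3 groups (n = 5 each) received the same LPS challenge on day 29, after 28 days of AEAA, a water extract of Artemisia argyi (mugwort), in drinking water at 0.5 mg/mL (low dose), 1 mg/mL (mid dose) or 1.5 mg/mL (high dose). All lungs were taken 8 h after the challenge. No group that received the extract without LPS was analysed here.

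Surfactant is a film of phospholipid and protein that lowers surface tension in the alveolus. Type II cells make it, pack it into lamellar bodies and secrete it. Surfactant proteins B and C are small and hydrophobic and act in the lipid film, while surfactant proteins A and D are collectins, soluble lectins that bind microbes. Abca3 pumps phospholipid into the lamellar body, Lpcat1 remodels phosphatidylcholine, Slc34a2 takes up phosphate, Napsa is a protease that helps to process surfactant protein B, Lamp3 is a membrane protein of the lamellar body, and Nkx2-1 is a transcription factor of the lung epithelium.

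Values are TPM (a transcript level per length that adds up to the same total in each library). The table holds no counts, so depth is unknown. Between 14996 and 16954 genes reached 1 TPM in a library. Xist was at 25.82 to 95.49 TPM and Ddx3y at 0 to 0.02 TPM in all libraries, which goes against the male label. Scgb1a1, the club cell secretoglobin, took 23.2% to 35.5% of all TPM in control libraries and 2.51% to 8.80% in challenged ones. With a fixed total, a change in 1 share moves the values of other genes. Over the 17823 genes tested, log2 fold changes for LPS against control had a median of 0.55. Most fold changes are therefore given for the TPM as deposited and again after median-of-ratios scaling, which divides each library by its median ratio to the average library (called scaled), where that median was 0.02. Of the 20 challenged libraries, 7 had little Cxcl2, a neutrophil-attracting chemokine (0.09 to 1.37 TPM, against 0.06 to 0.27 TPM in control and 45.12 to 454.09 TPM in the other 13). These were LPS replicates 2 and 4, low-dose replicate 1, mid-dose replicates 1 and 4, and high-dose replicates 1 and 4.

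The 10 genes made up 3.44% to 4.83% of all TPM in control lungs and 1.28% to 4.64% in challenged lungs. Sftpc led in every library, with a median over the 24 libraries of 22697 TPM. Sftpa1 (median 3023 TPM) and Sftpb (2923 TPM) followed and could not be ordered, since Sftpa1 was above Sftpb in 12 of 24 libraries. Sftpb was above Sftpd (1329 TPM) in 18 of 24. Slc34a2 (563 TPM), Napsa (341 TPM), Lamp3 (204 TPM) and Lpcat1 (137 TPM) came next. Each of these lay above the gene after it in 23 or 24 of the 24 libraries. Nkx2-1 (101.06 TPM) was above Abca3 (80.9 TPM) in 16 of 24. Sftpc also varied most, 7.40-fold from its lowest to its highest library, followed by Abca3 (4.51-fold) and Sftpd (4.44-fold), while Sftpa1 varied least (1.98-fold). In whole lung RNA, fewer type II cells and less RNA per cell cannot be told apart.

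**Figure D1:**
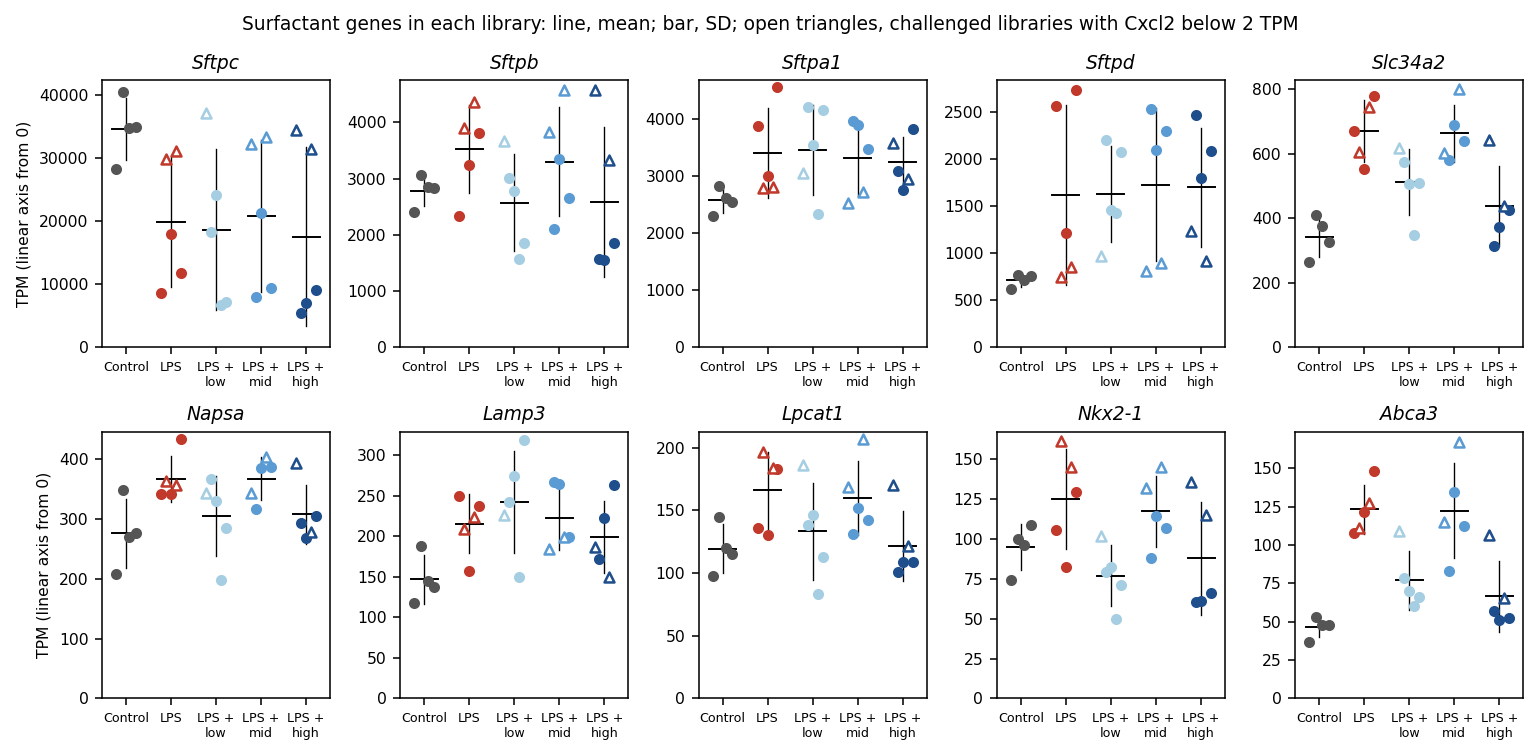
TPM (linear axes from 0) of the 10 genes in each of 24 libraries by group, with the group mean (line) and SD (bar); open triangles are the 7 challenged libraries with Cxcl2 below 2 TPM. Abca3 in all 5 LPS libraries (108.05 to 148.24 TPM) sits above control (37.08 to 53.27 TPM) and above all 5 high-dose libraries (50.86 to 106.61 TPM), while Sftpc spans a wide range in every challenged group.

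Promoter sequences are shown for Abca3, which passed under both scalings for LPS and for the high dose, and for the members whose window holds a core motif of Nkx2-1. They are RefSeq sequences of build GRCm38.p6, the 250 bases before the gene start, 5′ to 3′ on the plus strand, with the motif CTCAAG in capitals.
Sftpb, chr6:72304360-72304609: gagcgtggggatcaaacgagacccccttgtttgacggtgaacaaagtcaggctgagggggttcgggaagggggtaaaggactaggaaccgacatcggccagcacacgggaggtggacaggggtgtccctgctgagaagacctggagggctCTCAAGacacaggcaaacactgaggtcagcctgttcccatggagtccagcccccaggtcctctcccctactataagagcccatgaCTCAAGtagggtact
Sftpa1, chr14:41131538-41131787: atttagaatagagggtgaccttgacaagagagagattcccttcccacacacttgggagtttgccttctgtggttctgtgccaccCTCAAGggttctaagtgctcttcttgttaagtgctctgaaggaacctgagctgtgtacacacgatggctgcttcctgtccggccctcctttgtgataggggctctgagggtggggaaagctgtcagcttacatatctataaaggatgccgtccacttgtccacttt
Abca3, chr17:24351773-24352022: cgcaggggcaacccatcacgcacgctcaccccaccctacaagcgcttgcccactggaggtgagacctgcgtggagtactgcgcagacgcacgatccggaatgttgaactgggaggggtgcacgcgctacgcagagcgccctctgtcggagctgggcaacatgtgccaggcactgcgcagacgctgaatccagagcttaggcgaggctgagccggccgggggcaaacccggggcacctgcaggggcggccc
RefSeq windows of 300 bases (250 before to 50 after the start) were matched for 7 of the 10 genes (these 3, Lamp3, Lpcat1, Nkx2-1 and Slc34a2). CTCAAG, searched on both strands, was in 2 of the 7, with 2 copies in Sftpb and 1 in Sftpa1. Across all 32851 windows it was in 15.9%. The second motif, TCAAGTG, which shares 5 letters with the first, was in 0 of the 7 windows and in 3.06% of all windows. Sftpa1 and Sftpd are neighbours on chromosome 14, with Mbl1 and the pseudogene Gm7920 between them in the same build.

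LPS was compared with control to describe the surfactant genes of challenged lungs without extract. The clearest change was that of the lipid pump Abca3, which rose under both scalings, and the proteins' transcripts moved apart: Sftpc was lower and Sftpd higher in some challenged lungs than in any control. Of the 10 genes, 5 were higher and 0 lower at an adjusted p under 0.05 in the TPM as deposited (Abca3, Slc34a2, Sftpd, Lamp3 and Napsa). Over all genes tested, 56.2% were higher and 1.86% lower. After scaling, 1 gene was higher (Abca3) and 1 lower (Sftpc), beside 14.2% and 13.7% of all genes. The median log2 fold change of the 10 was 0.45 as deposited and -0.21 scaled, against 0.55 and 0.02 for all genes. Tests are moderated two-sided limma tests on log2(TPM + 1), adjusted over all genes by the Benjamini-Hochberg method. This scale understates changes of genes at low levels.

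Abca3 was at 37.08, 53.27, 48.08 and 47.58 TPM in control replicates 1 to 4 and at 108.05, 111.15, 121.38, 127.15 and 148.24 TPM in LPS replicates 1 to 5. The groups did not overlap, and the LPS libraries with little Cxcl2 lay among the others. The share of all genes without overlap was not computed. The mean was 46.5 ± 6.79 TPM (SD, n = 4) in control and 123 ± 15.97 TPM (SD, n = 5) with LPS. The log2 fold change was 1.39 (95% interval 0.96 to 1.82, limma adjusted p = 7.0e-06), and 0.74 (0.39 to 1.09, adjusted p = 0.0031) scaled. It passed under both scalings when any of the 9 libraries was left out.

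Slc34a2, the phosphate cotransporter, was at 262.66, 408.87, 375.34 and 324.60 TPM in control. In LPS replicates 1 to 5 it was at 670.52, 604.41, 552.45, 745.95 and 780.56 TPM. These groups did not overlap either, again without a share of all genes to set beside this. Its log2 fold change was 0.97 (0.59 to 1.36, limma adjusted p = 0.00011) as deposited and 0.32 (-0.00 to 0.64, adjusted p = 0.12) scaled. The call thus depended on the scaling, while the direction did not.

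Sftpc was at 28280, 40453, 34703 and 34891 TPM in control replicates 1 to 4. LPS replicates 1 to 5 gave 8550, 29758, 17979, 31098 and 11804 TPM. LPS replicates 2 and 4, with little Cxcl2, lay in the control range, and the other 3 lay below every control. The log2 fold change was -0.96 (-2.24 to 0.31, limma adjusted p = 0.19) as deposited and -1.62 (-2.80 to -0.44, adjusted p = 0.038) scaled, and the scaled call held in 2 of 9 fits that left out 1 library (without LPS replicate 2 and without LPS replicate 4). It was lost when a replicate block was added to the scaled fit (-1.44, limma adjusted p = 0.061). Without all 7 libraries with little Cxcl2, left aside after the data were seen and by a gene that itself responds to LPS, the values were -1.49 and -2.08 (3 LPS mice). Sftpc is thus described by its library values rather than by the group mean.

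Sftpd, the collectin, was at 615.85, 762.78, 713.02 and 753.49 TPM in control replicates 1 to 4. LPS replicates 1 to 5 gave 2565, 743, 1213, 850 and 2733 TPM. The same 2 libraries were nearest to control, replicate 2 within the control range and replicate 4 above every control. The other 3 lay further above. The log2 fold change was 0.98 (0.13 to 1.84, limma adjusted p = 0.046) as deposited and 0.33 (-0.62 to 1.27, adjusted p = 0.61) scaled. The deposited call held in 2 of 9 fits without 1 library (without LPS replicate 2 and without LPS replicate 4). Without the 7 libraries the values were 1.52 and 0.94.

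Among the other members, Lamp3 (log2 fold change 0.55, limma adjusted p = 0.023) and Napsa (0.43, adjusted p = 0.026) passed as deposited. Scaled, both lay on the other side of 0 (-0.10 and -0.22, adjusted p = 0.74 and 0.24). Lamp3 lost its call without control replicate 1, control replicate 4 or LPS replicate 1, and Napsa without control replicate 1 or LPS replicate 5. Sftpa1 (0.38 as deposited, -0.28 scaled), Sftpb (0.31 and -0.34), Lpcat1 (0.46 and -0.19) and Nkx2-1 (0.37 and -0.28) passed under neither scaling.

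**Figure D2:**
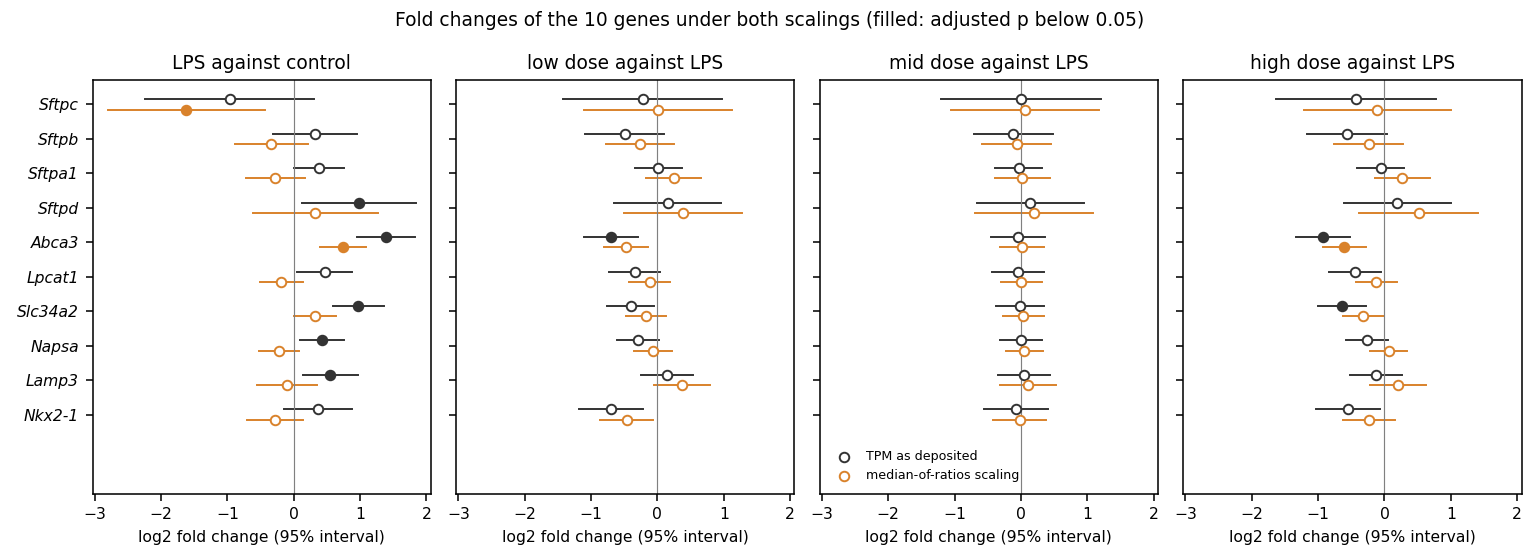
log2 fold changes on log2(TPM + 1) with 95% intervals for the 10 genes in 4 comparisons, as deposited (dark) and scaled (orange); filled points have an adjusted p below 0.05. Abca3 is filled under both scalings in the LPS panel (1.39 and 0.74) and in the high-dose panel (-0.93 and -0.60), and no point is filled at the mid dose.

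The balance among the 4 surfactant protein transcripts does not depend on the scaling of a library, since all 4 are divided by the same sum. In control, Sftpc held 84.2% to 85.9% of that sum, Sftpb 6.5% to 7.15%, Sftpa1 6.00% to 6.84% and Sftpd 1.62% to 1.84%. With LPS, Sftpc held 49.4% to 80.0%, Sftpb 10.5% to 16.6%, Sftpa1 7.17% to 22.4% and Sftpd 2.00% to 14.8%. For each of the 4 shares the LPS and control libraries did not overlap. In TPM these groups overlapped for each of the 4 transcripts, and Sftpa1 and Sftpb passed under neither scaling. Since Sftpc held most of the sum, a fall in Sftpc by itself raises the other shares. Mean shares differed by -18.8 percentage points for Sftpc, 7.39 for Sftpa1, 6.01 for Sftpb and 5.38 for Sftpd. Each gave p = 0.016 in a two-sided exact permutation test, the smallest that this test gives for 4 against 5 mice. After adjustment over 16 such tests it was 0.063, so none passed. As all 4 were already at the smallest value, the missed threshold does not measure how far the groups differ. The 4 shares add up to a whole and are not independent.

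Each extract dose was then set beside LPS alone in the same way, 12 of the 16 tests. The mean Sftpc share was 66.2% with LPS, 65.4% at the low, 66.5% at the mid and 62.2% at the high dose. The mean Sftpd share was 7.14%, 8.06%, 7.86% and 10.2% in the same order. The groups overlapped in all 12, and exact permutation p-values adjusted over the 16 tests ran from 0.42 to 0.98. The mean Sftpb share was 12.9% with LPS and 10.6%, 11.9% and 10.9% at the 3 doses, and that of Sftpa1 was 13.7%, 15.9%, 13.8% and 16.8%. For Sftpa1, Sftpc and Sftpd the SD within each challenged group was larger than the distance between the means. For Sftpb the distance at the low and at the high dose was larger than the SD of the dose group (2.13 and 1.49 percentage points) and smaller than the SD with LPS (2.39).

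**Figure D3:**
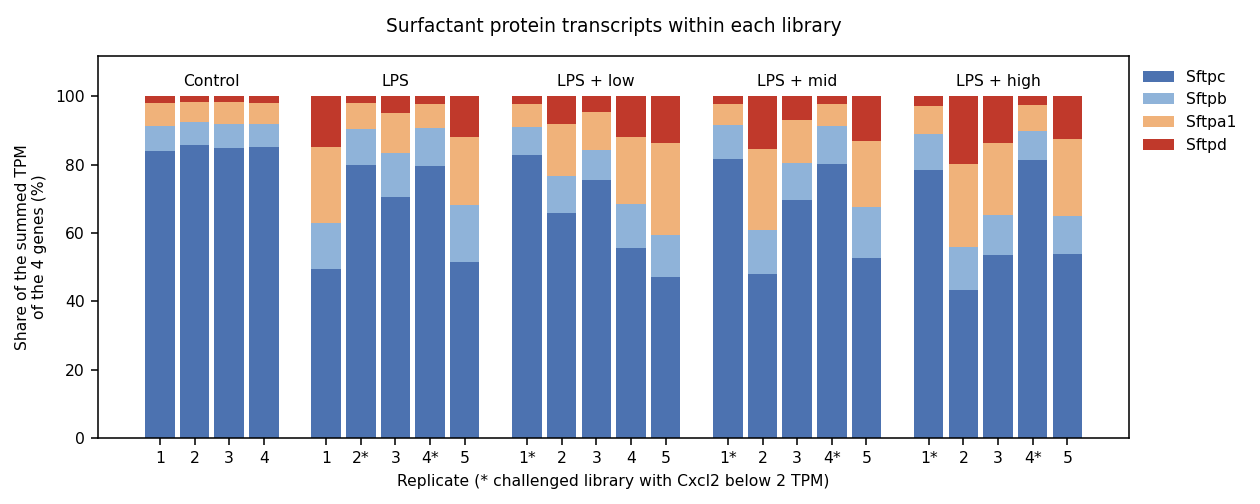
Share (%) of Sftpc, Sftpb, Sftpa1 and Sftpd in their summed TPM, 1 stacked bar per library; asterisks mark the 7 challenged libraries with Cxcl2 below 2 TPM. Sftpc takes 84.2% to 85.9% in control, 78.5% to 82.8% in the marked libraries and 43.4% to 75.6% in the other 13.

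Across the challenged mice, the level of Sftpc followed the library more than the group. The 7 libraries with little Cxcl2 were the 7 with the highest Sftpc (29758 to 37086 TPM, against 5464 to 24083 TPM in the other 13). For Sftpb, 6 of these 7 were among the 7 highest (3322 to 4583 TPM, against 1552 to 3803 TPM). The same count held for Nkx2-1 (102 to 162 TPM, against 49.5 to 130 TPM) and Lpcat1 (122 to 207 TPM, against 83.3 to 183 TPM, with 1 of these 7 among the 7 lowest). For the collectins it was the reverse. Of the same 7 libraries, 6 were among the 7 lowest in Sftpd (743 to 1230 TPM, against 1213 to 2733 TPM) and 5 among the 7 lowest in Sftpa1 (2523 to 3572 TPM, against 2323 to 4558 TPM). For Abca3, Slc34a2 and Napsa, 3 of the 7 were among the highest and 1 among the lowest, and for Lamp3 0 were among the highest and 4 among the lowest. The ratio of Sftpc to Sftpd TPM was 45.9 to 53.03 in control, 27.9 to 40.0 in the 7 libraries and 2.21 to 16.5 in the other 13. The split was not particular to the surfactant genes. Summed fibroblast markers were at 2188 to 3171 TPM in the 7 libraries and 566 to 1859 TPM in the other 13. Summed ciliated cell markers were at 837 to 1178 TPM and 352 to 705 TPM in the same order. The share of all genes that split in this way was not computed. The fibroblast sum does not stand for each of its 5 markers. Against control, their scaled log2 fold changes with LPS were 0.84 (Col1a1), 1.03 (Col3a1), 0.71 (Pdgfra), -0.50 (Tcf21) and -1.63 (Inmt). Every challenged group held both kinds of library, and these comparisons across libraries, made after the data were seen, have no test.

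**Figure D4:**
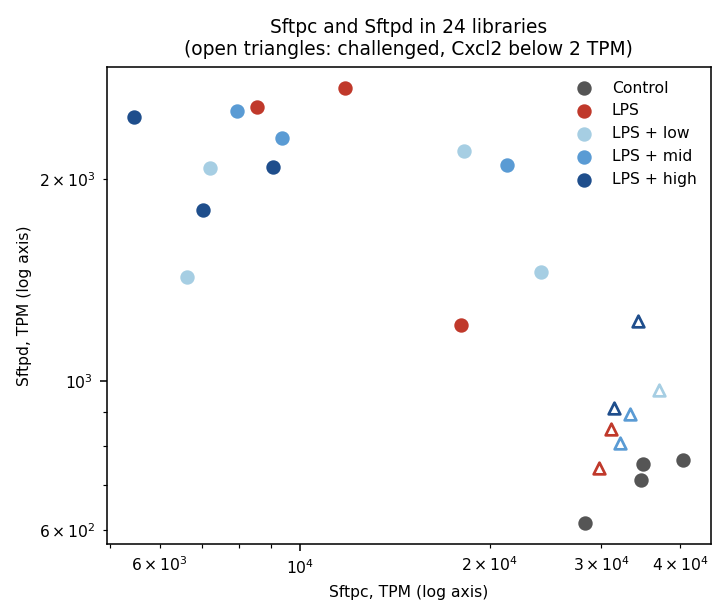
Sftpd against Sftpc, both in TPM on log axes, 1 point per library, coloured by group; open triangles are the 7 challenged libraries with Cxcl2 below 2 TPM. Control points and triangles lie at high Sftpc and low Sftpd, and the other 13 challenged libraries have less Sftpc (5464 to 24083 TPM).

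The doses were compared with LPS alone, all 3 against the same 5 LPS libraries, to describe whether mice given the extract differed. At the high dose Abca3 was lower than with LPS under both scalings, and Slc34a2 was lower as deposited. At the low dose Abca3 was lower as deposited. At the mid dose no member and no other gene passed. Testing any dose in 1 F-test, Abca3 (limma adjusted p = 0.0035, scaled 0.023) and Slc34a2 (adjusted p = 0.019, scaled 0.30) passed as deposited, 2 of 10 members beside 22.2% of all genes, and 1 of 10 beside 7.07% scaled.

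At the high dose Abca3 was at 106.61, 56.96, 50.86, 65.66 and 52.68 TPM in replicates 1 to 5, a mean of 66.6 ± 23.1 TPM (SD, n = 5) against 123 ± 15.97 TPM with LPS. All 5 lay below every LPS library, though replicate 1 came close to the lowest of them. How many of all genes separated in this way was not computed. The log2 fold change was -0.93 (-1.33 to -0.52, limma adjusted p = 0.0029), and -0.60 (-0.93 to -0.27, adjusted p = 0.021) scaled. The deposited call held in all 10 fits without 1 library. The scaled call was lost without LPS replicate 5, high-dose replicate 3 or high-dose replicate 5. Without the 7 libraries with little Cxcl2, which leaves 3 mice a group, the values were -1.21 and -0.88.

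Slc34a2 at the high dose was at 643.11, 312.61, 372.78, 437.78 and 425.01 TPM in replicates 1 to 5, so replicate 1 lay within the LPS range and the other 4 below it. Its log2 fold change was -0.64 (-1.004 to -0.28, limma adjusted p = 0.010), and -0.32 (-0.62 to -0.01, adjusted p = 0.19) scaled. No other member passed. Nkx2-1 (-0.55, scaled -0.23) and Lpcat1 (-0.45, scaled -0.12) had a limma adjusted p of 0.080 each as deposited. Sftpb was at -0.56 (scaled -0.24) and Sftpc at -0.43 (scaled -0.11). The sign of Sftpa1 (-0.06, scaled 0.27), Lamp3 (-0.12, scaled 0.20) and Napsa (-0.26, scaled 0.06) turned with the scaling, and Sftpd was at 0.19 (scaled 0.52). Thus 0 members were higher and 2 lower as deposited, beside 2.05% and 25.5% of all genes, and 0 and 1 scaled, beside 5.66% and 3.07%. Without high-dose replicate 1, 5 members were lower as deposited. The share of all genes lower in that fit was not recorded, so this count says nothing particular to the members. The median of the 10 was -0.44 as deposited and -0.12 scaled, against -0.27 and -0.00 for all genes.

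At the low dose Abca3 was at 108.95, 78.73, 70.26, 60.07 and 66.32 TPM in replicates 1 to 5. Replicate 1 lay just inside the LPS range, and the other 4 lay below it. The log2 fold change was -0.70 (-1.10 to -0.29, limma adjusted p = 0.030), and -0.47 (-0.80 to -0.14, adjusted p = 0.14) scaled. The deposited call held in 4 of 10 fits without 1 library, and was lost without LPS replicate 4 or 5 or low-dose replicate 2, 3, 4 or 5. This was 1 member lower and 0 higher, beside 9.38% and 1.23% of all genes. Scaled, 0 passed in either direction, beside 0.488% lower and 1.62% higher. Nkx2-1 had a log2 fold change of -0.69 and missed the threshold (limma adjusted p = 0.057), with -0.46 scaled (adjusted p = 0.23).

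At the mid dose Abca3 was at 114.82, 83.02, 134.31, 167.35 and 112.20 TPM and Slc34a2 at 603.04, 579.66, 690.20, 801.44 and 641.07 TPM in replicates 1 to 5, both overlapping with LPS. With limma, 0% of all genes passed in either direction under either scaling, and 625 had an unadjusted p under 0.05 as deposited (532 scaled), none of them a member. The difference between doses was tested as well. High minus mid was -0.89 for Abca3 (limma adjusted p = 0.0052, scaled -0.62, adjusted p = 0.022) and -0.63 for Slc34a2 (adjusted p = 0.016, scaled -0.36, adjusted p = 0.14). No member passed for mid minus low (Abca3 0.66, adjusted p = 0.095) or high minus low (Abca3 -0.23, adjusted p = 0.78). The share of all genes that passed between doses was not recorded. Mean Abca3 was 76.9, 122 and 66.6 TPM at the low, mid and high dose.

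Surfactant is mostly lipid, and a list of 21 genes for its synthesis and handling was followed beside the members. With LPS, 13 were higher and 0 lower as deposited, and 3 higher and 4 lower scaled, with medians of 0.59 and -0.01. Of all genes, 56.2% were higher and 1.86% lower as deposited, and 14.2% and 13.7% scaled, so the shares of the list lay near the background. Acaca, which makes malonyl-CoA for fatty acids, rose under both scalings (1.21 and 0.61, limma adjusted p = 0.015 scaled). Scaled, the choline phosphotransferase Chpt1 (-0.77), the desaturase Scd1 (-0.76) and the cholesterol exporter Abca1 (-1.06) were lower. As deposited they were at -0.12, -0.10 and -0.47 and did not pass.

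At the high dose, 9 of the 21 lipid genes were lower than with LPS and 0 higher as deposited, and 4 lower and 0 higher scaled. Of all genes, 25.5% were lower and 2.05% higher as deposited, and 3.07% lower and 5.66% higher scaled. The median of the list was -0.38 as deposited and -0.07 scaled, against -0.27 and -0.00 for all genes. The 4 were Fasn, the fatty acid synthase, Acaca, Acly, which supplies acetyl-CoA, and Srebf1, a transcription factor of lipid synthesis. Fasn was at 141.13 to 278.29 TPM with LPS and 60.84 to 148.15 TPM at the high dose, where its log2 fold change was -1.21 as deposited and -0.89 scaled (limma adjusted p = 0.0039 and 0.024). Srebf1 was at 45.13 to 55.88 TPM with LPS and 23.55 to 39.91 TPM at the high dose (-0.80 and -0.49, limma adjusted p = 0.0017 and 0.011). Its groups did not overlap, and the share of all genes without overlap was not computed. Acaca (-0.96 and -0.66) and Acly (-0.66 and -0.34) also passed under both. At the low dose 4 were lower as deposited, Fasn, Srebf1 and Prdx6 among them, and 0 scaled, beside 9.38% and 0.488% of all genes. These genes are also expressed outside type II cells, fat included.

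**Figure D5:**
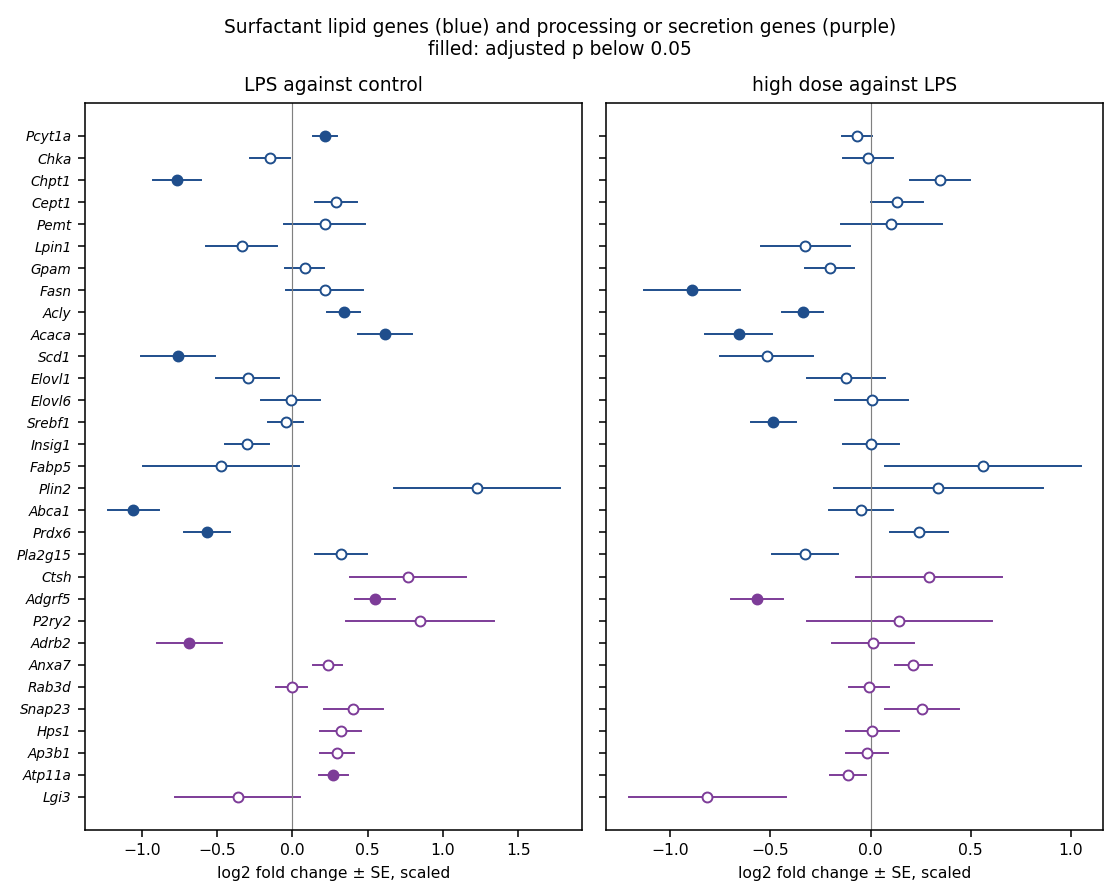
Scaled log2 fold changes ± SE of 20 of the 21 surfactant lipid genes (blue) and 11 processing, traffic or secretion genes (purple) for LPS (left) and the high dose (right); filled points have an adjusted p below 0.05. Fasn, Acly, Acaca, Srebf1 and Adgrf5 are the filled points at the high dose, all below 0.

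Of 11 genes for processing of surfactant proteins, lamellar body traffic and secretion, 9 were higher and 0 lower with LPS as deposited, and 2 higher and 1 lower scaled. These and the LPS counts that follow stand beside 56.2% of all genes higher as deposited, and 14.2% higher and 13.7% lower scaled. Adgrf5, a receptor that restrains the surfactant pool, rose under both scalings (1.20 and 0.55, limma adjusted p = 0.0056 scaled) and was lower at the high dose (-0.89 and -0.57, adjusted p = 0.0093 scaled). The endothelium also expresses Adgrf5. Of the 6 endothelial markers, 4 were higher with LPS as deposited and 2 scaled, and 3 were lower at the high dose as deposited and 1 scaled, and their summed level was 674 to 976 TPM in control, 1377 to 2026 TPM with LPS and 1040 to 1328 TPM at the high dose. The part of the endothelium in this result was not tested. At the high dose, 4 of the 11 were lower as deposited and 1 scaled, with 0 higher, beside 25.5% and 3.07% of all genes lower. Of 10 transcription factors of the alveolar epithelium, 5 were higher and 0 lower with LPS as deposited. Scaled, Elf3 was higher (0.61, as deposited 1.24) and Nfib lower (-0.49, as deposited 0.14 with a limma adjusted p of 0.55). At the high dose 3 were lower as deposited and 0 scaled. Of 6 genes of surfactant clearance by alveolar macrophages, 5 were higher with LPS as deposited and 0 scaled, and 1 was lower at the high dose as deposited (Pparg, -0.55, scaled -0.26) and 0 scaled.

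The other cells of the lung moved too. The summed level of 5 neutrophil markers was 117 to 183 TPM in control and 512 to 11995 TPM with LPS. Against control, 5 of 5 were higher with LPS as deposited and 4 scaled, beside 56.2% and 14.2% of all genes. At the high dose the sum was 199 to 11671 TPM (median 6026 TPM, against 1986 TPM with LPS), and 0 passed against LPS under either scaling. Of 7 tested type II cell markers outside the 10 genes, 2 were higher with LPS as deposited and 0 scaled, where S100g was lower (-1.86, limma adjusted p = 0.025). As deposited S100g was at -1.20 (adjusted p = 0.11). The 2 of 7 higher as deposited stand beside 56.2% of all genes. Their summed level was 978 to 1285 TPM in control and 1032 to 2009 TPM with LPS, and 684 to 1479 TPM at the high dose, where 0 passed. Of 6 markers of the transitional state between type II and type I cells, 6 were higher with LPS as deposited and 2 scaled, beside 56.2% and 14.2% of all genes (Cdkn1a, 2.42, and Sfn, 1.83, as deposited 3.06 and 2.45). Of 5 fibroblast markers, 3 were higher with LPS as deposited, and 3 higher and 1 lower scaled. Of all genes, 56.2% were higher as deposited, and 14.2% higher and 13.7% lower scaled. Of the same 5, 4 were lower at the high dose than with LPS as deposited and 1 scaled (the collagen gene Col1a1, -0.66, as deposited -0.98). This stands beside 25.5% and 3.07% of all genes. The fibroblast medians were -0.80 and -0.48, against -0.44 and -0.12 for the 10 surfactant genes and -0.27 and -0.00 for all genes. The summed level of the fibroblast markers was 2040 to 2675 TPM in control, 1014 to 2661 TPM with LPS and 566 to 2663 TPM at the high dose. That sum blends markers that moved in opposite ways with LPS, such as Col3a1 (scaled 1.03) and Inmt (scaled -1.63). The part of these cells in the members' changes was not tested.

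Genes whose pattern was most like the members' mean were sought among 13934 others by Pearson's r on scaled values after group means were subtracted, over 24 libraries. They were Clic5 (r = 0.85), a type I cell marker, Tfcp2l1 (0.82), Mtcl1 (0.81), Insyn1 (0.80) and Osbpl5 (0.80). Within the 13 challenged libraries with more Cxcl2, r was 0.98, 0.85, 0.91, 0.83 and 0.86 in the same order, and within the 7 with little Cxcl2 it was 0.75, 0.75, 0.95, 0.78 and 0.85. These genes were picked by r over the same libraries, so a high r within a part of them is no separate support. The means subtracted were those of whole groups, so differences between groups can remain within each part. Among the members themselves, r on the same values over 24 libraries ran from -0.79 (Sftpc with Sftpd) to 0.93 (Sftpb with Sftpc). Their mean thus blends genes that moved in opposite ways, and a gene close to it need not follow each member. These are descriptions with no test, and all genes of a library share its RNA sample.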

How the data were processed

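Lung RNA, depleted of ribosomal RNA, was sequenced as read pairs, per the labels' protocols. The deposited table gives TPM per gene, made by the authors. Per the submitters' processing notes, HISAT2, StringTie, RSEM, DESeq2 and GRCm39 were used, and their versions are not given in the sources used here. Counts and depth were not analysed here, so precision rests on the spread between libraries. Nothing in the labels pairs equal replicate numbers across groups, and replicates are taken as separate mice per the labels. Genes with TPM of 1 or more in 4 or more of 24 libraries (17823) were fitted on log2(TPM + 1) with limma 3.58.1 (R 4.3.3; trend and robust prior, 1 mean per group) and adjusted over all genes at 0.05. Scaled values are TPM divided by median-of-ratios factors. Shares were compared by exact permutation (SciPy 1.17.1). The fit was tested on simulated data. The genes named are the 10 members, the leading genes of each list (up to 4 that passed, or the 2 most abundant) and the 5 most alike. The members and lists were chosen with earlier results of these data known. Alternatives were other scalings, no filter, a pseudocount of 0.1, the compared groups alone, a replicate block and leaving out each library. The values of 1 lipid gene are not reported here. Sequences are RefSeq promoters of GRCm38.p6.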

Additional observations from a re-analysis of the deposited data

Results flagged for a closer look

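In 70 sets of values (10 genes and 4 shares in 5 groups), 1 library stood apart from its group in 2, where chance gives about 1 in 20. Abca3 was at 106.61 TPM in high-dose replicate 1, with the next value at 65.66 TPM and the lowest at 50.86 TPM. Without that library, which also had little Cxcl2 (0.44 TPM), the high-dose call for Abca3 held under both scalings. Napsa was at 433.59 TPM in LPS replicate 5, with the next at 362.4 TPM and the lowest at 341.37 TPM, and its LPS call as deposited was lost without it.

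Of 30 differences between doses of the 10 genes, 2 passed in the TPM as deposited. The share of all genes that passed in these differences was not recorded, so the count says nothing particular to the members. High minus mid was -0.89 on the log2 scale for Abca3 and -0.63 for Slc34a2 (limma adjusted p = 0.0052 and 0.016). The Abca3 difference passed after scaling as well (-0.62, adjusted p = 0.022), and that of Slc34a2 did not (-0.36, adjusted p = 0.14). The libraries overlapped for Abca3 (83.02 to 167.35 TPM at the mid dose, 50.86 to 106.61 TPM at the high dose) and for Slc34a2 (579.66 to 801.44 TPM and 312.61 to 643.11 TPM).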

How the results depend on the processing

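For LPS against control, the 5 members higher became 1 with median-of-ratios or upper-quartile scaling, or with median-of-ratios scaling and a replicate block, and 2 with TPM rescaled without Scgb1a1, with no filter, or scaled without the 7 libraries with little Cxcl2. The 0 lower became 1 with either scaling, with the compared groups alone or without the 7 libraries, and 2 with both. At the low dose the 1 lower became 0 with either scaling, no filter or the scaled replicate block, and 2 without the 7 libraries. At the high dose the 2 lower became 1 with either scaling or the scaled replicate block and 4 without the 7. For any dose the 2 became 1 with either scaling, no filter, the scaled replicate block or scaled without the 7, and 4 without the 7. Leaving out 1 library gave 2 to 5 higher for LPS, 0 to 2 lower at the low dose, 2 to 5 lower at the high dose and 2 to 3 for any dose. The share of all genes called moved with the setting too. With median-of-ratios scaling it went from 56.2% to 14.2% higher for LPS and from 25.5% to 3.07% lower at the high dose. For the other settings it was not recorded, so these shifts in counts are not read as results about the members. The scaled replicate block and leaving aside the 7 libraries were chosen after seeing the data. Lamp3 and Napsa turned direction for LPS with median-of-ratios scaling (-0.10 and -0.22), upper-quartile scaling (-0.19 and -0.31), the scaled replicate block (-0.17 and -0.25) and scaled without the 7 (-0.046 and -0.13), where Nkx2-1 was at -0.43. The cause was not tested.

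The replicate block alone changed the call of 1 of 50 member values (Sftpd with LPS, 0.83 on the log2 scale, limma adjusted p = 0.054), and the 46 same-numbered pairs had correlations from -0.46 to 0.65 (median 0.06, 20 above 0.1), with 5 of 24 libraries closest to their own number. Among challenged groups, same-numbered pairs with little Cxcl2 in both libraries ran from 0.43 to 0.65. They were replicate 1 of the low, mid and high dose, and replicate 4 of LPS, mid and high dose. Pairs with 1 library of each kind ran from -0.46 to -0.08. The 4 LPS shares already had the smallest p that the permutation test gives for these group sizes. That no share passed under any alternative, the block included, thus says nothing about their stability. With 1 library left out, the LPS difference in the share of Sftpc among the surfactant proteins was -22.2 to -14.6 percentage points. Without counts, the error of a single library is unknown.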
